A study of Mus musculus with 21 samples.

Results

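The genes described here are a set of 10 genes typical of white and brown adipocytes (fat cells), read in lung tissue: Adipoq, Lep, Retn, Cfd, Plin1, Cidec, Fabp4, Pck1, Ucp1 and Cidea. A gene was included through the probe set whose symbol in the platform annotation is that gene alone, and each included gene had 1 such probe set. This gave 9 of the 10 genes, among 19938 genes in all. Cfd was not analysed here. Male C57BL/6 mice provided the right lung tissue, and its RNA was hybridised to 21 Affymetrix arrays. The left lung had been removed (left pneumonectomy, after which the remaining lobes grow), and tissue was taken at days 3, 7, 14, 28 and 56. The controls were day 0, before the operation, and day 56 after sham surgery, in which the lung was left in place. Each of these 7 conditions had 1 array of the cardiac lobe, 1 of the medial lobe and 1 of the whole right lung. Whether the 3 regions of a condition share animals or pools is not stated in the labels, nor whether the whole lung contains the lobes measured singly. All p-values therefore measure only the spread between these arrays, which may be partly technical.

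Adipocytes store fatty acids as triglyceride in lipid droplets and release hormones into the blood. White adipocytes hold 1 large droplet and secrete adiponectin (Adipoq), leptin (Lep) and, in mice, resistin (Retn). Brown adipocytes hold many small droplets and burn fat for heat through uncoupling protein 1 (Ucp1), which lets protons leak across the inner mitochondrial membrane. Lung tissue itself contains few adipocytes, but fat depots lie close by in the mediastinum, around the heart and along the large vessels. Some of the genes are not restricted to fat: Fabp4, a fatty acid carrier, is also made by capillary endothelium and macrophages, and Pck1, which makes glycerol backbone for triglyceride in fat, makes glucose in liver and kidney.

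The start regions of 4 genes are shown because these genes carry the 2 patterns described below, Retn and Cidec for the changes shared by regions and Ucp1 and Plin1 for the high values on single arrays. Each window runs from 250 bases before to 50 bases after the start site, 5′ to 3′ on the gene's strand, from RefSeq on GRCm38.p6. The windows are chr8:3655520-3655819 (plus strand) for Retn, chr6:113434715-113435014 and chr6:113435711-113436010 (both minus strand) for 2 start sites of Cidec, chr8:83290098-83290397 (plus strand) for Ucp1 and chr7:79732727-79733026 (minus strand) for Plin1. Capitals mark matches to AGGTCA, the half-site bound by PPAR and related nuclear receptors, or to TTGCNNAA, a form of the C/EBP site.
Retn: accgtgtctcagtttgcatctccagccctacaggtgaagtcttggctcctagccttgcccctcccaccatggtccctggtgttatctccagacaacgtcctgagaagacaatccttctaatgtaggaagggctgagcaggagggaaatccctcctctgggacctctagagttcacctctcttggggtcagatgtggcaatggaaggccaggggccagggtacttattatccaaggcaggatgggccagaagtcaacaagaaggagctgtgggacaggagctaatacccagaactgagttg
Cidec, first window: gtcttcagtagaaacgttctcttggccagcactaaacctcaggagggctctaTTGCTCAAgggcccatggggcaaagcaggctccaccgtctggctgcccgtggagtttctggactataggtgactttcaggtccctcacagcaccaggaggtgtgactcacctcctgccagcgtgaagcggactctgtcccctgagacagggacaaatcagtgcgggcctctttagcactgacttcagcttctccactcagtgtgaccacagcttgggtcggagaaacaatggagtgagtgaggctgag
Cidec, second window: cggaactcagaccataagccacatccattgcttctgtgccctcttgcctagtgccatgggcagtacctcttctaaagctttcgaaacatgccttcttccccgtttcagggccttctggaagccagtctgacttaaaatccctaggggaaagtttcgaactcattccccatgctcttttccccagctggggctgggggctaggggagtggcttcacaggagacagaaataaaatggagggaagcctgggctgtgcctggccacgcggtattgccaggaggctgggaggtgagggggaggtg
Ucp1: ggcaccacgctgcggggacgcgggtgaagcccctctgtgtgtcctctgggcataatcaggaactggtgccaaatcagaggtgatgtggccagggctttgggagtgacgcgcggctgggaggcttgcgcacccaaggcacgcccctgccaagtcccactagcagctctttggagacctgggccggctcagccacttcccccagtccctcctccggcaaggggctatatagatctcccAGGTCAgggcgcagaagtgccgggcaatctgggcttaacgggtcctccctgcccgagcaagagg
Plin1: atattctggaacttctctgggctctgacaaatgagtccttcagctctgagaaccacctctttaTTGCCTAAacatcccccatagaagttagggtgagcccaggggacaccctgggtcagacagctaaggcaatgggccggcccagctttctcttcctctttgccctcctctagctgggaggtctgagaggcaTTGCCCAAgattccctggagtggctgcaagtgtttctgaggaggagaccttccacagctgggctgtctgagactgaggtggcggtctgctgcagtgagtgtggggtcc

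On both strands, AGGTCA was found in 1 of the 9 windows listed for 8 of the 10 genes, that of Ucp1, where it begins 14 bases before the start site. AGGTCA was present in 16.3% of all 32851 windows. Windows of Cidea and Fabp4 were not read here and are not among the 9. TTGCNNAA was found in 3 of the 9 windows, those of Plin1 (at 187 and 58 bases before the start site), the first Cidec window (198 bases) and Lep (55 bases), against 10.8% of all windows. The direct repeat of the half-site with 1 base between its copies, which contains the half-site, was in none of the 9 and in 0.0396% of all windows, and TATAAA was in none of the 9 and in 13.6% of all windows. These are matches of letters only.

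Expression values are log2 probe set values, on which a difference of 1 is a 2-fold difference. Lung markers were present on every array: the mean of 7 lung epithelial genes (among them Sftpc and Sftpb, surfactant proteins, and Scgb1a1 of club cells) lay between 12.27 and 12.78 on all 21 arrays. Its lowest value was that of the day 3 whole lung, which stood apart from the other whole lungs by Dixon's test. The files hold no detection calls, so a low value cannot be told from background. Correlations between arrays ran from 0.963 to 0.996. The narrowest spread of probe set values was an interquartile range of 3.55 among cardiac arrays, on day 7, and of 3.39 among whole lung arrays, at day 56 after pneumonectomy.

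The 1 array that stood apart for these genes was the day 28 cardiac lobe. Ucp1 reached 10.74 there, against 4.49 to 5.18 on the other 6 cardiac arrays. Cidea, a lipid droplet protein of brown fat, reached 9.66, against 4.97 to 5.55. In both brown adipocyte genes no other cardiac array came near, and over the median of the region the ratio of signals was 73.3 for Ucp1 and 20.8 for Cidea. In a bulk sample, more cells of a type and more RNA per cell cannot be told apart.

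Other genes of the set were also high on the same array, with smaller ratios. Pck1 was at 9.76, against 5.53 to 6.17 on the other cardiac arrays, a ratio of 12.7 to the median of the region. Adipoq was at 9.47, against 6.26 to 7.14, a ratio of 6.91. These ratios lay below those of the brown adipocyte genes. A ratio also depends on the level it starts from, so this order alone does not rank the amounts of signal added. The medians of the cardiac lobe were 4.55 for Ucp1 and 5.28 for Cidea, against 6.09 for Pck1, 6.68 for Adipoq and 9.06 for Fabp4. Plin1, the perilipin that coats the droplet and gates lipolysis, was at 9.20, against 6.35 to 7.15, a ratio of 4.98. Fabp4 was at 10.95, against 8.42 to 9.35, a ratio of 3.72. Retn was at 8.79, against 6.96 to 7.89, a ratio of 2.57. All 5 genes were above every other cardiac array. Cidec, which enlarges droplets by fusing them, was at 9.64, against 7.59 to 8.86, a ratio of 1.77. Leptin did not take part: Lep was at 4.76, within the 4.60 to 5.16 of the other cardiac arrays.

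An array was counted as high for a gene where its value lay over 1 above the median of its region over the 7 conditions. By this count 7 of the 9 genes were high in the day 28 cardiac lobe, all but Cidec and Lep, where 0.236% of all genes were. For 7 of the 9 this array was the highest of all 21, as it was for 3.26% of all genes. The exceptions were Retn, highest in the sham whole lung, and Lep, highest in the day 0 whole lung.

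**Figure D1:**
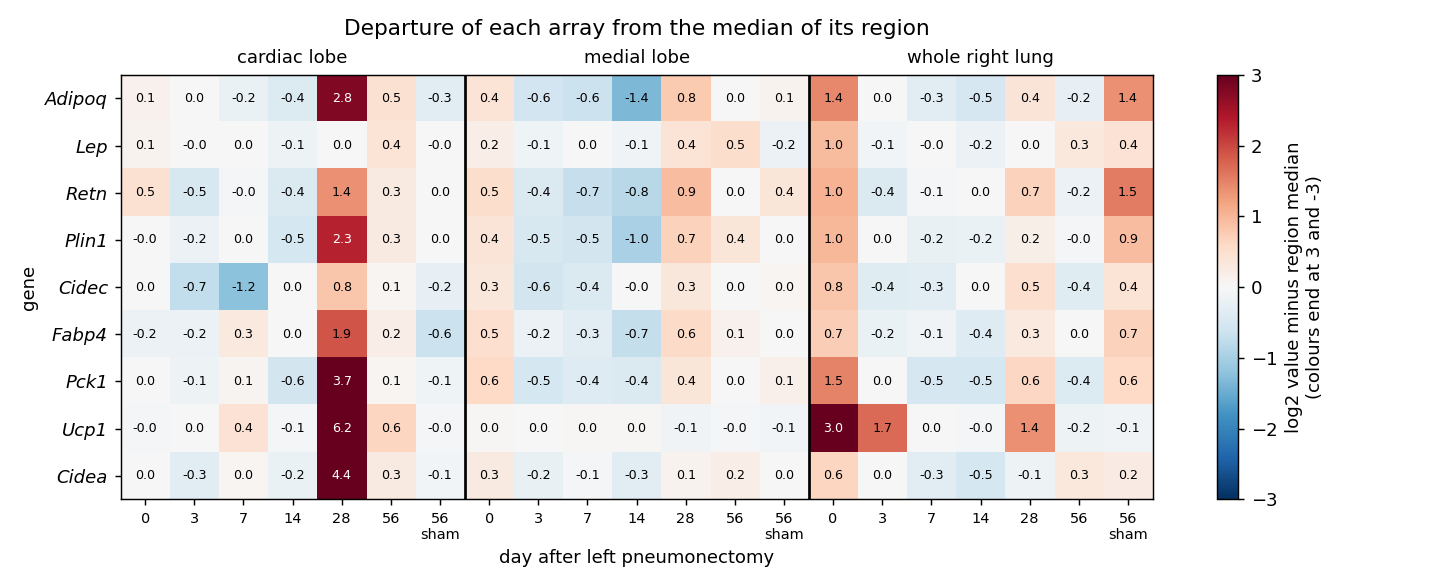
Each cell gives the log2 value of a gene on 1 array minus the median of that gene over the 7 arrays of the region, with day after pneumonectomy on the horizontal axis and 1 block per region. The day 28 cardiac lobe departs in 7 of 9 genes, by up to 6.20 for Ucp1, and the day 0 and sham whole lungs depart in 4 and 2 genes.

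Other adipocyte genes were high on the day 28 cardiac array too. Of 21 other white adipocyte genes measured, 12 were high there, and their mean was 8.63, against 7.19 to 7.52 on the other cardiac arrays. Of 14 other brown adipocyte genes, 5 were high, and their mean was 7.79, against 6.55 to 6.76. Of 17 genes of fatty acid and triglyceride synthesis, 7 were high, Dgat2 being in 2 of these lists. The largest departures outside the 9 genes, named after their values were seen, were Thrsp (3.90 above the median of the region), a lipogenic regulator, Tmem45b (3.58), Aqp7 (3.32), the glycerol channel of adipocytes, Elovl3 (3.29), a fatty acid elongase of brown fat, and Cox8b (3.11), a muscle-type subunit of cytochrome oxidase used in brown fat. None of 13 heart muscle genes, 12 skeletal muscle genes or 8 thymus genes was high there. The mean of the heart muscle genes, at 7.01, was below the 7.16 to 7.83 of the other cardiac arrays, and the lung markers averaged 12.63, within the 12.51 to 12.75 of those arrays.

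**Figure D2:**
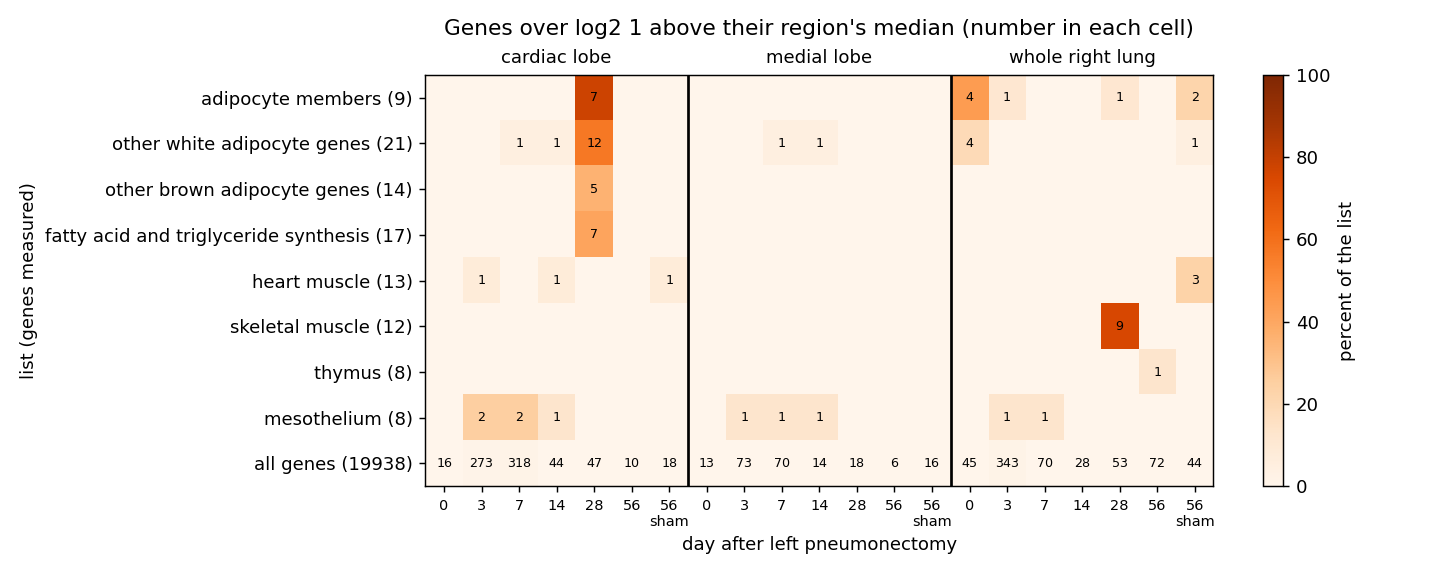
The number in each cell is the count of genes of a list that lay over log2 1 above their region's median on that array, and the colour is the percent of the list (0 to 100). Adipocyte lists fill in the day 28 cardiac lobe (7 of 9 and 12 of 21), whereas skeletal muscle genes fill in the day 28 whole lung (9 of 12).

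The whole lung arrays differed among themselves in which adipocyte genes they held. On the day 0 whole lung, 4 of the 9 genes were high (Ucp1, Pck1, Adipoq and Retn), against 0.226% of all genes. Plin1 and Lep lay just under the cut, 0.999 and 0.952 above the median of the region. For each of the 9 genes this array ranked 1 or 2 from the top of the 21. How many of all genes ranked so on this array was not counted. The same array is the whole lung value of day 0 in every comparison with day 0. Ucp1 was at 7.92 there, at 6.61 on day 3 and at 6.27 on day 28, whereas on days 7, 14 and 56 and in the sham whole lung it lay between 4.73 and 4.90. In the medial lobe Ucp1 stayed between 4.41 and 4.55 on all 7 arrays. On the day 3 and day 28 whole lungs Ucp1 was the 1 gene of the 9 that was high, against 1.72% and 0.266% of all genes. None of the 9 was high on a medial array, as for most genes (0.968% of all genes were high on at least 1). The sham whole lung held 2 high genes of the 9, against 0.221% of all genes: Adipoq was at 8.93 and Retn at 9.99, while Ucp1 was at 4.78 and Cidea at 6.09.

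Genes of other tissues were also high on some of these arrays. In the sham whole lung 3 of 13 heart muscle genes (Nppa, Myh6 and Tnni3) and 7 of 11 neutrophil and monocyte genes were high, with list means of 8.12 and 8.79. In the day 28 whole lung 9 of 12 skeletal muscle genes were high, with a list mean of 7.25, against 5.78 to 6.00 on the other whole lungs. On the day 0 whole lung no gene of the heart or skeletal muscle lists was high, and 4 of 21 other white adipocyte genes were. The part of these tissues in the adipocyte values was not tested.

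**Figure D3:**
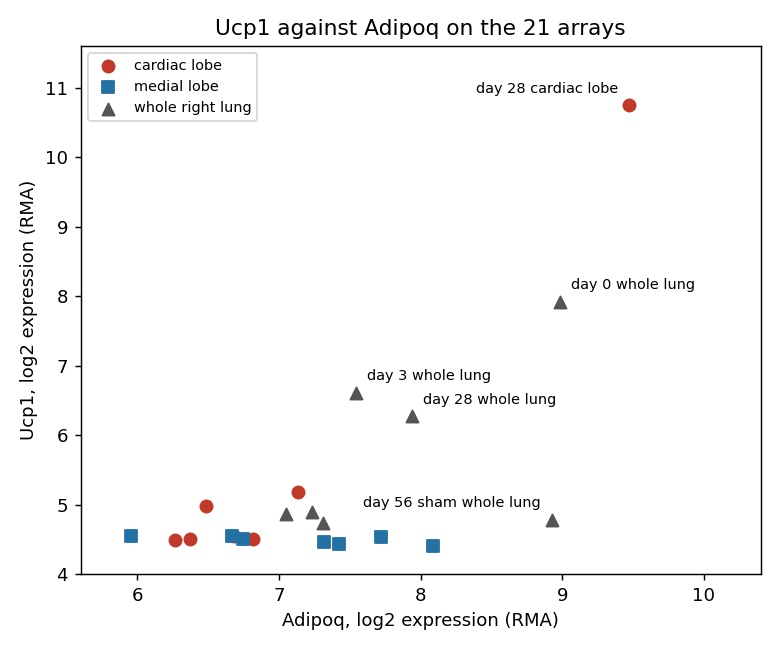
Each point is 1 of the 21 arrays, with the log2 value of Adipoq on the horizontal and of Ucp1 on the vertical axis, and colour and shape give the region. The day 28 cardiac lobe (9.47, 10.74) and the day 0 whole lung (8.99, 7.92) are high in both, the day 3 and day 28 whole lungs reach 6.61 and 6.27 in Ucp1, the sham whole lung (8.93, 4.78) is high in Adipoq alone, and the medial lobes keep Ucp1 between 4.41 and 4.55.

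Beside these single arrays, low values at days 3 and 7 were shared by all 3 regions for Cidec and Retn. From day 0 through days 3, 7, 14, 28 and 56, Cidec measured 8.81, 8.07, 7.59, 8.82, 9.64 and 8.86 in the cardiac lobe, with 8.57 after sham surgery. In the medial lobe it measured 9.27, 8.39, 8.51, 8.94, 9.27 and 8.94, with 8.99 after sham surgery. In the whole lung it measured 9.48, 8.30, 8.31, 8.65, 9.16 and 8.29, with 9.07 after sham surgery. Days 3 and 7 lay below day 0 and sham in each region. Over the 6 and 6 arrays the highest early value was 8.51 and the lowest control value 8.57, a narrow gap. How many of all genes part in this way was not counted. At day 56 the regions parted: the whole lung was at its lowest, 8.29, whereas both lobes were above their values of days 3 and 7.

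Retn measured 7.89, 6.96, 7.40, 6.99, 8.79 and 7.69 in the cardiac lobe from day 0 to day 56, with 7.43 after sham surgery. In the medial lobe the course was 8.42, 7.46, 7.21, 7.06, 8.83 and 7.89, with 8.26 after sham surgery. In the whole lung it was 9.50, 8.02, 8.40, 8.45, 9.14 and 8.28, with 9.99 after sham surgery. Within each region every value of days 3 and 7 was below both controls, and day 28 was the highest or among the 3 highest conditions. In the cardiac lobe the margin was narrow, with 7.40 at day 7 against 7.43 after sham surgery. How many of all genes are ordered in this way was not counted. At day 14 both lobes were still near their lowest values, and the whole lung was not. Across regions the early and control arrays overlapped, also with the whole lung set aside: the medial lobe at day 3 was at 7.46, against 7.43 in the sham cardiac lobe.

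**Figure D4:**
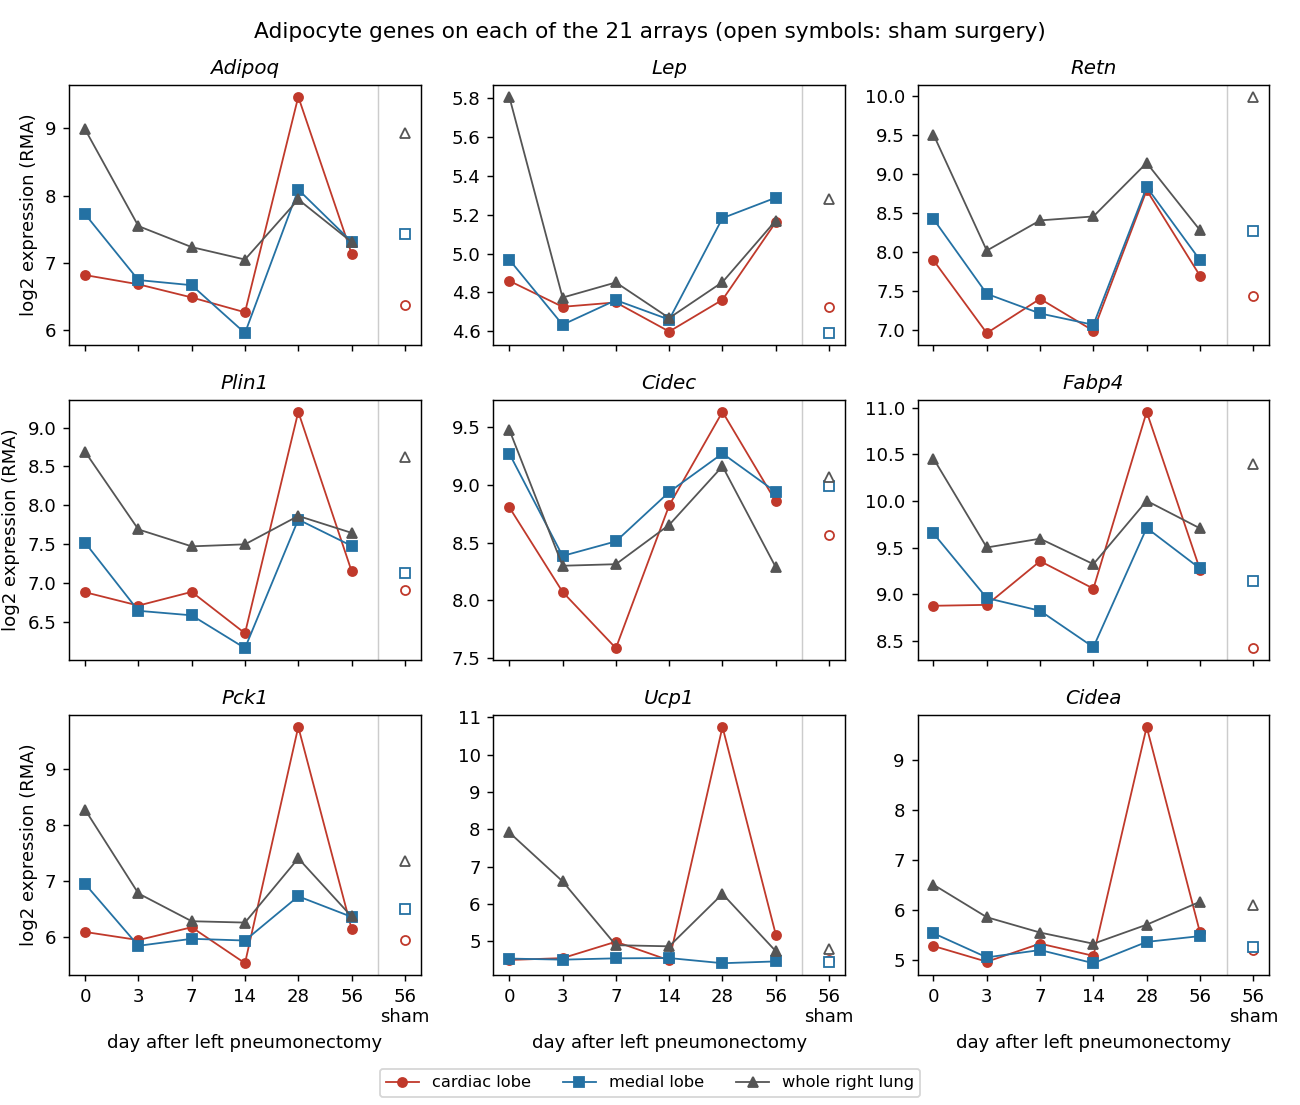
Each panel shows 1 gene, with log2 expression on a vertical axis of its own and day after left pneumonectomy, equally spaced, on the horizontal axis, each point being 1 array (filled after day 0 and pneumonectomy, open after sham surgery). Cidec and Retn dip at days 3 and 7 in all 3 regions, and the day 28 cardiac point stands alone for Ucp1 (10.74), Cidea (9.66) and Pck1 (9.76).

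In a linear model with terms for condition and region (limma, 21 arrays, 12 residual degrees of freedom), 2 of the 9 genes differed among the 7 conditions by the moderated F test, where 7.76% of all genes passed. These were Cidec (limma adjusted p = 0.00962) and Retn (limma adjusted p = 0.0104). Adjusted p-values are by Benjamini and Hochberg over all 19938 genes, and a gene passed under 0.05. The other 7 had adjusted p-values from 0.106 to 0.523, and 4 of the 9 passed without the day 28 whole lung array, where 6.62% of all genes did.

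At day 3, 2 of the 9 genes fell against day 0 (2.73% of all genes fell, 6.7% changed). Retn averaged 7.48 ± 0.53 at day 3 and 8.60 ± 0.82 at day 0 (SD, n = 3 each), a difference of -1.13 ± 0.29 (SE) or 2.18-fold lower (limma adjusted p = 0.0280). Cidec averaged 8.25 ± 0.16 at day 3 and 9.19 ± 0.34 at day 0 (SD, n = 3 each), a difference of -0.93 ± 0.22 (SE) or 1.91-fold lower (limma adjusted p = 0.0157). Neither fall passed in the lobes alone, nor without the day 0 whole lung array, the day 3 whole lung array or the day 3 cardiac array, and that of Retn did not pass without the day 0 medial or cardiac array. With sham in place of day 0 the difference of Cidec was -0.62 and did not pass (limma adjusted p = 0.106). In all 3 regions 7 of the 9 genes were lower at day 3, against 24.1% of all genes, the exceptions being Ucp1 and Fabp4 in the cardiac lobe. The median difference of the 9 was -0.68, and that of all genes 0.01.

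At day 7, 1 of the 9 genes fell against day 0 (4.97% of all genes fell, 8.69% changed). Cidec averaged 8.14 ± 0.49 at day 7 and 9.19 ± 0.34 at day 0 (SD, n = 3 each), a difference of -1.05 ± 0.22 (SE) or 2.07-fold lower (limma adjusted p = 0.0104). It did not pass without the day 7 cardiac or the day 0 whole lung array, nor with sham in place of day 0 (limma adjusted p = 0.0675). Retn differed by -0.93 ± 0.29 (SE, n = 3 each, limma adjusted p = 0.0566) and so missed the threshold. It passed without the sham cardiac array or without the whole lung array of day 28, day 56 or sham, where 7.31% to 13.9% of all genes changed. Of the 9 genes, 4 were lower in all 3 regions (Adipoq, Retn, Cidec and Lep), against 24.5% of all genes. The median difference of the 9 was -0.84, and that of all genes 0.03.

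With days 3 and 7 combined against day 0 and sham, the same 2 of 9 genes fell (7.72% of all genes fell, 14.2% changed). Retn differed by -1.01 ± 0.20 (SE, n = 6 against 6), 2.01-fold lower (limma adjusted p = 0.00374). By region the difference was -0.48 in the cardiac lobe, -1.01 in the medial lobe and -1.54 in the whole lung. Cidec differed by -0.84 ± 0.15 (SE, n = 6 against 6), 1.78-fold lower (limma adjusted p = 0.00186). Its difference was -0.86 in the cardiac lobe, -0.68 in the medial lobe and -0.97 in the whole lung. Cidec passed under all 30 alternative settings run for it, with adjusted p-values up to 0.0211, and Retn under 29 of 30.

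The other 7 genes were lower in the fit but did not pass, and the day 28 cardiac array, which belongs to neither side, widened their errors, Lep aside. Adipoq differed by -0.82 ± 0.35 (SE, limma adjusted p = 0.134), Pck1 by -0.69 ± 0.41 (0.281), Plin1 by -0.63 ± 0.28 (0.156) and Lep by -0.29 ± 0.13 (0.138). Without that array the differences were the same and Adipoq (limma adjusted p = 0.0494), Plin1 (0.0401) and Pck1 (0.0341) also passed. In that fit 5 of 9 genes fell, where 13% of all genes changed in either direction. Fabp4 (-0.30 ± 0.26), Cidea (-0.32 ± 0.50) and Ucp1 (-0.10 ± 0.74) did not pass with all arrays (limma adjusted p of 0.465, 0.704 and 0.944) or without that one. In all 3 regions 6 of the 9 were lower, against 25.4% of all genes. The difference in early response between cardiac and medial lobe, and between whole lung and lobes, passed for none of the 9 and for 0% of all genes. The smallest adjusted p-values of the 9 were 0.964 and 0.996, and 1 of the 9 in the second comparison, Lep, had an unadjusted p under 0.05 (0.0323).

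**Figure D5:**
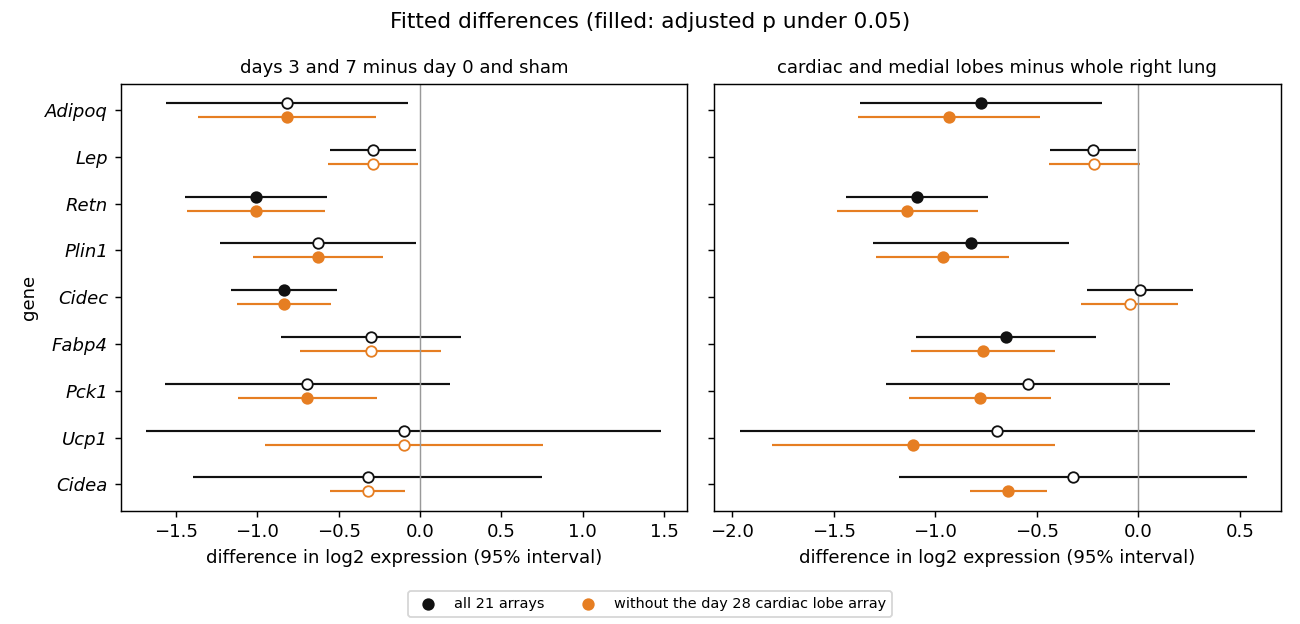
Fitted log2 differences with 95% intervals for each gene, days 3 and 7 minus day 0 and sham on the left and both lobes minus whole right lung on the right, with all 21 arrays (black) and without the day 28 cardiac array (orange), filled where the adjusted p is under 0.05. Retn (-1.01) and Cidec (-0.84) are filled on the left with all arrays, and the orange intervals of Cidea, Pck1 and Ucp1 are narrower than the black ones.

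At day 14 the differences from day 0 were about as large, but none of the 9 passed (1.2% of all genes changed). Adipoq averaged 6.42 ± 0.56 at day 14 and 7.84 ± 1.09 at day 0 (SD, n = 3 each), a difference of -1.42 ± 0.49 (SE, limma adjusted p = 0.244). Retn differed by -1.10 ± 0.29 (SE, limma adjusted p = 0.0858) and Lep by -0.57 ± 0.18 (SE, limma adjusted p = 0.169). The unadjusted p was under 0.05 for 4 of the 9, those 3 and Plin1, and for 2185 of all 19938 genes. Without the sham cardiac or the sham whole lung array 1 of the 9, Retn, passed, where 1.06% and 1.15% of all genes changed. Of the 9 genes, 6 were lower in all 3 regions, against 16.7% of all genes, and the median difference was -1.02, against 0.01 over all genes. Cidec was an exception, at -0.38 ± 0.22 (SE), and in the cardiac lobe its day 14 value lay 0.02 above day 0.

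At day 28 none of the 9 genes passed against day 0, nor did any gene (0%). The unadjusted p was under 0.05 for 0 of the 9 and for 1439 of all genes. Ucp1 averaged 7.14 ± 3.25 at day 28 and 5.65 ± 1.96 at day 0 (SD, n = 3 each), and differed by 6.24 in the cardiac lobe, -0.12 in the medial lobe and -1.65 in the whole lung. Its fitted difference was 1.49 ± 1.05 (SE), and -0.43 without the day 28 cardiac array. Likewise the differences of Cidea (1.14), Pck1 (0.86), Adipoq (0.66), Plin1 (0.60) and Cidec (0.17) turned to -0.35, -0.24, -0.09, -0.06 and -0.07 without it. None of the 9 was lower in all 3 regions, against 18.3% of all genes.

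At day 56 none of the 9 genes passed against day 0 (0.0903% of all genes changed) or against sham (0.336%). Against day 0 the unadjusted p was under 0.05 for 2 of the 9 and for 2832 of all 19938 genes. The 2 were Retn (-0.65 ± 0.29, SE) and Cidec (-0.49 ± 0.22, SE), each with a limma adjusted p of 0.341. Retn, 1 of the 9, was lower in all 3 regions, against 17.6% of all genes. Against sham the unadjusted p was under 0.05 for 0 of the 9 and for 1630 of all genes. The largest size of difference was that of Retn, -0.61 ± 0.29 (SE, limma adjusted p = 0.621). In the whole lung Retn and Adipoq were 1.71 and 1.62 below sham, whereas in the cardiac lobe both were above it (0.26 and 0.76). Lep was at 5.16 to 5.29 on the 3 arrays of day 56 and at 4.73, 4.59 and 5.28 after sham surgery in the cardiac lobe, medial lobe and whole lung. Sham against day 0 also had none of 9 (0.381%), with 0 at an unadjusted p under 0.05 (1856 of all genes). In all 3 regions 6 of 9 were lower, against 19.1% of all genes. Days 14, 28 and 56 against day 0 and sham had none of 9 (0.015%), with 1, Retn, at an unadjusted p under 0.05.

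Between regions, 4 of the 9 genes were lower in the lobes than in the whole right lung (8.79% of all genes were lower, 29.1% differed). Retn averaged 7.59 ± 0.63 in the cardiac lobe, 7.88 ± 0.66 in the medial lobe and 8.83 ± 0.73 in the whole lung (SD, n = 7 each). The mean of both lobes lay -1.09 ± 0.16 (SE) from the whole lung, 2.13-fold lower (limma adjusted p = 0.000356). Retn was lower in the lobes in all 7 conditions, the 1 gene of the 9 that was, against 5.47% of all genes. Plin1 differed by -0.82 ± 0.23 (SE, limma adjusted p = 0.0147), Adipoq by -0.77 ± 0.28 (SE, limma adjusted p = 0.0489) and Fabp4 by -0.65 ± 0.21 (SE, limma adjusted p = 0.0293), each lower in the lobes in 6 of 7 conditions. Day 28 was the exception for all 3. Cidec did not differ beyond its error (0.01 ± 0.12, SE, limma adjusted p = 0.963).

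These region differences depended on single arrays. Without the day 28 cardiac array 7 of 9 were lower in the lobes, Cidea (-0.64), Ucp1 (-1.11) and Pck1 (-0.78) being added. In that fit 25.1% of all genes differed, and this share and those below count both directions. Without the sham whole lung array 1 of 9 was, Retn, where 20.5% of all genes differed. Without the day 0 or the day 14 whole lung array 2 of 9 were, Retn and Plin1, where 27.2% and 19.4% of all genes differed. Adipoq passed in 9 of 28 alternative settings, Plin1 in 27, Fabp4 in 25 and Retn in all 28. Between cardiac and medial lobe none of the 9 passed (0.0903% of all genes did) and none had an unadjusted p under 0.05, the smallest adjusted p being 0.576 for Cidec.

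Genes that receive adipocyte hormones or control adipocyte formation were read over the comparison of days 3 and 7 with day 0 and sham. Of all genes 7.72% fell there and 14.2% changed. Of 4 receptors for adiponectin and leptin, 3 fell at days 3 and 7 against day 0 and sham (median -0.39). Lepr, the leptin receptor, fell by 0.76 on the log2 scale and Cdh13 (T-cadherin), which binds adiponectin, fell by 0.58. Adipor1, an adiponectin receptor, fell by 0.16. Of 10 adipocyte transcription factors 3 fell (median -0.17): Ebf1 (-0.82 ± 0.14, SE), Klf15 (-0.81 ± 0.07, SE) and Pparg (-0.30 ± 0.09, SE), the nuclear receptor that directs fat cell formation and is also active in alveolar macrophages. Of 13 lipolysis and lipid droplet genes 4 fell (median -0.10), among them Gpihbp1 (-0.45 ± 0.10, SE), which holds lipoprotein lipase on capillaries. Of 17 fatty acid and triglyceride synthesis genes 2 fell (median -0.29), Lpin1 (-0.62 ± 0.10, SE) and the desaturase Scd2 (-0.37 ± 0.09, SE). The limma adjusted p-values of these named genes ran from 5.35e-06 to 0.0443.

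Of the 21 other white adipocyte genes 4 fell and 1 rose early (median -0.39), where 7.72% of all genes fell and 14.2% changed. Sncg, gamma-synuclein, differed by -0.49 ± 0.08 (SE), and Cdo1, cysteine dioxygenase, by -0.55 ± 0.11 (SE). Mest, an imprinted gene also active in growing tissue, rose by 0.86 ± 0.13 (SE). Of the 14 other brown adipocyte genes 3 fell (median -0.23), among them Fabp3 (-0.70 ± 0.16, SE), a fatty acid carrier of heart and brown fat, and Prdm16 (-0.32 ± 0.04, SE), a regulator of brown fat identity. These limma adjusted p-values ran from 0.000107 to 0.00936. The list mean of the white genes was 7.19 to 7.44 on the 6 early arrays, against 7.46 to 8.09 on the 6 control arrays. The mean of the 9 adipocyte genes was 6.39 to 7.23, against 6.45 to 8.40, and overlapped. The lists were compiled with earlier results of these data known, and they share some genes, such as Gpihbp1, Dgat2 and Lpl.

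Markers of other tissues were read over the same comparison, where 7.72% of all genes fell and 14.2% changed. Of 13 heart muscle genes 7 fell early, with a median of -0.54 and list means of 6.90 to 7.66, against 7.36 to 8.12 in the controls. Of 10 endothelial genes 6 fell, with a median of -0.37 and list means of 9.999 to 10.78, against 10.63 to 11.22. Of 8 mesothelial genes, of the membrane that covers the lung, 7 rose, with list means of 9.69 to 10.36, against 8.81 to 9.48. Of 7 lung epithelial genes 2 fell, with list means of 12.27 to 12.74, against 12.64 to 12.76. Skeletal muscle had 1 of 12 genes higher, cartilage 1 of 7 higher, the neutrophil and monocyte list 2 of 11 higher, thymus 1 of 8 lower and lipofibroblasts 3 of 8 lower. For the macrophages and vessels that share Fabp4, 2 of 8 alveolar macrophage genes fell and 1 rose. In the lobes against the whole lung, 9 of the 10 endothelial genes and 5 of the 8 alveolar macrophage genes were higher, and Fabp4 was lower. Of all genes 29.1% differed there, and 8.79% were lower in the lobes. The part of these tissues and cells in the course of Retn and Cidec, or in the level of Fabp4, was not tested.

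Among themselves the 9 genes varied together to different degrees over the 21 arrays. Over their 36 pairs Pearson's r had a median of 0.705 and ran from 0.201 to 0.968, and without the day 28 cardiac array the median was 0.751. With the mean of the others, Pck1 (0.972), Plin1 (0.945) and Adipoq (0.940) had the highest r. Cidec (0.606) and Lep (0.463) had the lowest, and without the day 28 cardiac array Cidec was at 0.494 and Lep at 0.768. Outside the set, the genes most like the mean of the 9 were Thrsp (0.965), Cox8b (0.959), Tmem45b (0.956), Adig (0.932), Dgat2 (0.932), Aqp7 (0.932), Plin4 (0.894), Ephx2 (0.890), Acsm3 (0.881) and Amy1 (0.881). Without the day 28 cardiac array these 10 values ran from 0.762 to 0.937. The points share region and day, and these correlations are descriptions with no test.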

How the data were processed

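RNA of 21 right lung samples was measured on 1-colour Affymetrix arrays. The authors' deposited values are RMA log2 signals, 1 for each probe set on each array, per the submitters' processing notes. For the RMA version, its settings and the genome build, the entry is not given in the sources used here. Per the labels' protocols, RNA was amplified with a 3' kit. All 21 samples carry the same hybridisation comment in the labels. Of 35556 probe sets, 21789 have 1 gene symbol, 1621 several and 12146 none in the platform annotation, and 21698 gene numbers matched a RefSeq table, used for names. The probe set with the highest mean stood for each of 19938 genes (999 had over 1). Columns of other samples numbered 0, and no 2 columns were identical. RMA shrinks differences at low signal. Precision is limited by having 1 array per condition and region.

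An additive model of condition and region was fitted over the 21 arrays (limma 3.58.1, R 4.3.3), with empirical Bayes moderation and Benjamini-Hochberg adjustment over all genes within each comparison. A value after ± is the standard error of a fitted difference, unless SD is stated. Differences in early response used means of region and phase. The replicate number of the labels' grouping stands for the region, so the region term is the block. Dixon's test was applied to the 7 arrays of each region. The fit was also run on simulated data with 200 changed genes. Those data had independent noise and no array that stood apart, so they check only the calculation. Genes named are the 10 listed, up to 4 of each other list with the smallest F test p, and the 10 most correlated with the mean of the set, predicted genes being passed over. Genes named after a look at their values are marked so. The genes and the 16 other lists were chosen with earlier results of these data known. Alternatives were no region term, averaging the probe sets of a gene, dim genes left out, a trended robust prior, median-centred arrays, the lobes alone, array weights, sham as control, 2 arrays of narrow spread left out, and each array left out in turn. Leaving out the day 28 cardiac and day 0 whole lung arrays together was chosen after seeing the data.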

Additional observations from a re-analysis of the deposited data

Results flagged for a closer look

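Dixon's test compares the gap between an extreme array and its neighbour with the range of the 7 arrays of a region, and chance alone marks about 1 in 20 such groups. Of 27 groups formed by the 9 genes in 3 regions, 6 were past the critical value, all with the day 28 cardiac lobe as the highest array. These were Ucp1 at 10.74, Fabp4 at 10.95, Pck1 at 9.76, Cidea at 9.66, Adipoq at 9.47 and Plin1 at 9.20. They come from 1 array and from genes that vary together (median r of 0.705 over pairs of the 9). They are therefore not 6 separate events to set against that rate. Of 24 groups formed by list means, 5 were past it. The mean of the other white adipocyte genes was 8.63 and that of the other brown adipocyte genes 7.79, both in the day 28 cardiac lobe. The mean of the skeletal muscle genes was 6.31 in the day 7 cardiac lobe and 7.25 in the day 28 whole lung, each the highest of its region. The mean of the lung epithelial genes was 12.27 in the day 3 whole lung, the lowest of its region. Retn, Cidec and Lep were past the value in no region.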

How the results depend on the processing

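Of the differences of single genes under the alternatives listed above, 399 kept direction and call, 7 newly passed, 8 no longer passed and 12 turned direction, the settings that leave out single arrays and the 1 chosen after seeing the data aside. Without the day 28 cardiac and day 0 whole lung arrays, 44 kept both, 3 newly passed, 2 no longer passed and 5 turned. Counts of the 9 genes that passed moved as follows, each with the share of all genes that passed in the same fit. Without the replicate block (no region term), Cidec alone passed: 1 across conditions (3.37%), 1 at day 3 (3.15%) and 1 at days 3 and 7 combined (7.21%). The lobes alone gave 1 across conditions (2.73%), 0 at day 3 (1.68%) and 2 at day 7 (7.59%). Array weights gave 7 across conditions (26.9%, against 7.76% without weights), 2 at day 7 (14%) and 2 at day 14 (5.4%). With sham as the control, day 3 gave 1, Retn (7.67%), and day 7 gave 0 (4.52%). With dim genes left out day 7 gave 2 of the 5 genes tested (10.8%). Without the day 7 cardiac and day 56 pneumonectomy whole lung arrays day 14 gave 1 (4.07%). Without the day 28 cardiac and day 0 whole lung arrays 1 passed across conditions (4.6%), 0 at day 3 (3.11%) and 7 between lobes and whole lung (22.9%). With 1 array left out, shares are given for the ends of a range that differ from the fit to all arrays. Leaving out 1 array gave 2 to 4 across conditions (6.62% with 4) and 0 to 2 at day 3 (3.33% to 3.76% with 0). It gave 0 to 2 at day 7 (2.46% and 2.65% with 0, 7.31% to 13.9% with 2). At day 14 it gave 0 to 1 (1.06% and 1.15% with 1). Days 3 and 7 combined gave 2 to 5 (13% with 5). Lobes against whole lung gave 1 to 7 (20.5% with 1, 25.1% with 7). The other comparisons gave 0.

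Direction turned for differences that did not pass. Ucp1 against day 0 was 0.0101, 0.25 and 0.0017 at days 3, 7 and 14 in the lobes alone, and 0.64, 0.23 and 0.0590 with sham as the control. Without the day 28 cardiac and day 0 whole lung arrays it was 0.47 at day 3 and 0.0551 at day 7. For days 3 and 7 combined it was 0.15 in the lobes alone and 0.35 without those arrays. Lep at day 28 was 0.0581 in the lobes alone, 0.0667 with sham as the control and 0.0424 without those arrays, and Cidea was -0.16 without them. Cidec between lobes and whole lung was -0.0443 with centred arrays, -0.0356 without the 2 arrays of narrow spread and -0.0222 with array weights. With 1 array left out, Ucp1 ran from -1.28 to 0.62 at day 3, -1.69 to 0.21 at day 7, -1.87 to 0.0352 at day 14 and -0.52 to 0.43 at days 3 and 7 combined, and Cidec between lobes and whole lung from -0.0915 to 0.0839. At day 28 the ranges were -0.43 to 2.64 for Ucp1, -0.35 to 1.96 for Cidea, -0.24 to 1.42 for Pck1, -0.0869 to 1.28 for Adipoq, -0.0604 to 1.17 for Plin1 and -0.0721 to 0.34 for Cidec, each lowest without the day 28 cardiac array. The causes of the other changes were not tested, and with no detection calls the lowest signals cannot be set against background.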
